A study of Mus musculus with 15 samples.

Results

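Mouse blood monocytes fall into a classical and a nonclassical kind, and 10 genes that tell these kinds apart were followed in whole blood. They were taken by symbol from the 55416 genes counted: Ly6c2, Ccr2, Fn1, F13a1 and Vcan as classical members, and Cx3cr1, Nr4a1, Treml4, Ace and Spn as nonclassical members. The rule itself uses no measured value, and all 10 members passed the filter on low counts in every comparison.

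Classical monocytes carry Ly6C and the chemokine receptor CCR2, which draws them out of the bone marrow along CCL2, and they enter inflamed tissue. Nonclassical monocytes carry CX3CR1, patrol the wall of blood vessels and need the nuclear receptor NR4A1 to form. In the mouse, classical monocytes can convert into nonclassical ones while they circulate. In whole blood, fewer monocytes of a kind and less RNA per monocyte cannot be told apart.

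RNA was sequenced from cheek bleeds of 15 mice, 5 per group, and each library came from 1 mouse. All were C57BL/6, and the study's methods give female mice of 4 to 6 weeks at transplantation. In the early ND and late ND groups, 1000000 cells of the oral squamous carcinoma line 4MOSC1, which grows in this strain, were placed in the tongue. Those animals received 2 doses of αCTLA-4, a checkpoint antibody, and then neck dissection (ND, surgical removal of the lymph nodes of the neck), on day 6 in early ND mice and on day 11 in late ND mice. The untreated group had neither antibody nor surgery. The labels give its libraries the same tumor protocol with 10 days of growth, and whether these mice bore tumors is not stated apart from that. One passage of the study places bleeding on day 10, before the late ND, and another after it, so "late ND" names the group here whichever holds.

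Genes received 5527108 to 13924361 counts per library, with early ND at 5527108 to 7182346 and late ND at 7849602 to 13924361. Levels are CPM, counts brought to a common total of 1000000 with TMM factors over all 15 libraries, a scaling that sets the bulk of genes equal between libraries. The 4 adult hemoglobin genes took 38.3 to 64.1% of gene counts in early ND, 14.9 to 29.3% in late ND and 31.6 to 61.7% in untreated mice. The libraries untreated 2, late 2 and late 3 held little 18S ribosomal sequence (Rn18s-rs5 at 313 to 766 CPM of the library total), so results are also given without them.

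Ly6c2 (ENSMUSG00000022584, chr15:74980003-74988467, minus strand, GRCm39) encodes Ly6C2, a surface protein that defines classical monocytes. Its neighbor Ly6c1 lies on the same strand and is nearly the same in sequence. The start of each coding sequence is shown because reads counted for Ly6c2 have to be told from those of Ly6c1. Capitals mark the 6 of 120 bases that differ, and the spans (chr15:74982427-74983516 and chr15:74919269-74920360, minus strand) include an intron:
Ly6c2: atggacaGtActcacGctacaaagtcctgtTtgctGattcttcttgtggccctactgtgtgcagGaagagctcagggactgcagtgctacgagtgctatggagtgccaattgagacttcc
Ly6c1: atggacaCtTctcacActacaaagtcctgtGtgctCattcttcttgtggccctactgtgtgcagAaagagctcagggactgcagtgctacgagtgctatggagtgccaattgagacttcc
Over the 393 coding bases 97.7% were identical, and the longest identical run of the transcripts, 188 bases, exceeded the read length of 150 bases. Some reads can therefore match both genes, and a read pair can where both its reads lie in shared sequence. Pairs aligned to more than 1 place were tallied apart from the genes, and that tally made up 44.1 to 75.2% of the sum over all rows. Whether a pair enters it for each of its places is not given in the sources used here. Pairs of these 2 genes may be among those aligned to more than 1 place. Both genes may therefore be undercounted, and the split between them is uncertain. Of the counts given to either gene, Ly6c2 took 93.6% ± 1.66 (SD, n = 5) in untreated, 94.6% ± 2.75 (SD, n = 5) in early ND and 97.3% ± 1.36 (SD, n = 5) in late ND mice, and these ranges overlapped.

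Between late ND and early ND blood, 2 of the 5 classical members were higher, Fn1 and Vcan, and no nonclassical member passed the test in either direction. Genes were called where the p of edgeR's quasi-likelihood test, after Benjamini-Hochberg adjustment over all 13315 genes tested, was under 0.05, which held for 2.5% as higher and 2.48% as lower. Before adjustment, 4 of the 10 members were higher at that level and none lower, against 14.4% and 9.33% of all genes. In 2 members, Fn1 and Vcan, the late ND values lay above all early ND values, as in 2.98% of all genes, and in none below, as in 2.93%. The median log2 fold change was 1.04 over the classical members, 0.15 over the nonclassical members and 0.01 over all genes.

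**Figure D1:**
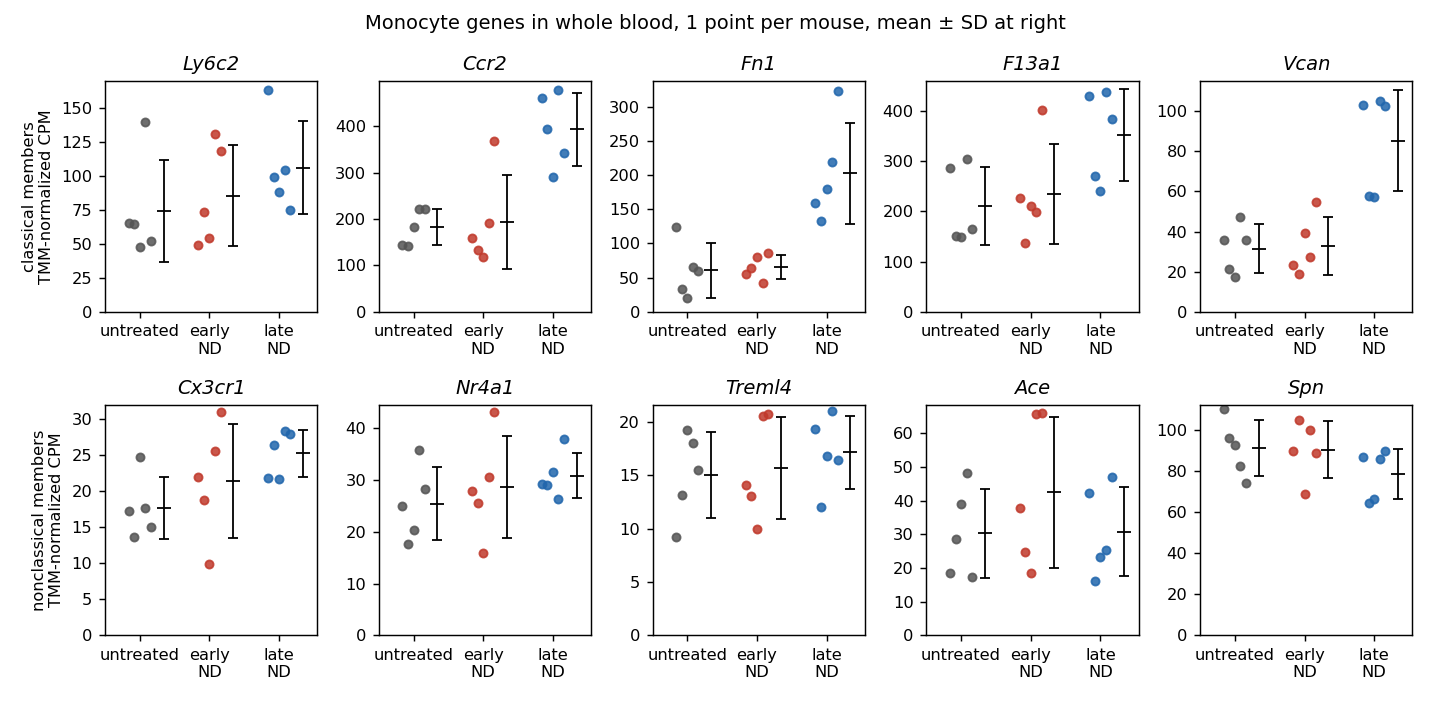
Each panel plots the TMM-normalized CPM (vertical axis, from 0) of 1 member in 15 libraries by group, 1 point per mouse, with the group mean ± SD beside the points. The late ND points of Fn1 and Vcan lie above every point of both other groups, whereas those of the nonclassical members in the lower row overlap with both.

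Fn1 (ENSMUSG00000026193, chr1:71624673-71692419) encodes fibronectin, an adhesive protein of the extracellular matrix and of plasma. Its level was 55.7, 64.8, 79.5, 42.2 and 85.8 CPM in early 1 to 5, and 160, 132, 179, 220 and 323 CPM in late 1 to 5. Untreated 1 to 5 had 124, 33.7, 19.9, 65.9 and 59.0 CPM. Each late ND mouse was above all early ND and untreated mice, and untreated 1 came nearest to them. Fn1 was 3.12-fold higher in late ND than in early ND (log2 fold change 1.64, SE 0.25, adjusted p = 0.0126, edgeR's quasi-likelihood test).

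Vcan (ENSMUSG00000021614, chr13:89803431-89890814) encodes versican, a large matrix proteoglycan that classical monocytes also make. Its level was 23.1, 18.9, 39.1, 27.4 and 54.8 CPM in early 1 to 5, and 103, 58.0, 57.3, 105 and 102 CPM in late 1 to 5. The untreated mice had 35.8, 21.4, 17.3, 47.2 and 35.8 CPM. The late ND mice were above both other groups without overlap, although late 2 and late 3, which are poor in 18S sequence, stood close to early 5. Vcan was 2.63-fold higher in late ND than in early ND (log2 fold change 1.40, SE 0.29, adjusted p = 0.0239). With 1 library left out at a time the difference ran from 1.25 to 1.67, and the call was lost without early 4 (adjusted p = 0.0720), late 1 (0.0528), late 4 (0.0610) or late 5 (0.0511). Over all genes, 38, 83, 36 and 66 were called higher in those fits, in the same order, in place of 333 with all libraries.

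Ccr2 (ENSMUSG00000049103, chr9:123901982-123913594) encodes the receptor for CCL2. Its level was 160, 133, 117, 191 and 368 CPM in early 1 to 5, and 461, 395, 292, 478 and 343 CPM in late 1 to 5. Untreated 1 to 5 had 145, 142, 182, 222 and 222 CPM. All late ND mice were above all untreated mice, but early 5 lay above late 3 and late 5, so that 3 of the 5 late ND mice exceeded every early ND mouse. The difference of 1.04 on the log2 scale between late and early ND (SE 0.29) did not pass (adjusted p = 0.0565). With 1 library left out at a time it ran from 0.91 to 1.43, and it passed in 1 of these 10 fits, the one without early 5 (adjusted p 0.0191, against 0.0591 to 0.144 in the others). DESeq2 called Ccr2 higher with all libraries (adjusted p = 0.0115).

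F13a1 (ENSMUSG00000039109, chr13:37051152-37234277) encodes the A subunit of coagulation factor XIII, made by monocytes and megakaryocytes. Its level was 227, 137, 211, 198 and 403 CPM in early 1 to 5, and 430, 271, 241, 438 and 385 CPM in late 1 to 5. The untreated mice had 287, 151, 149, 304 and 165 CPM. The groups overlapped, with early 5 above late 2, late 3 and late 5. The late ND to early ND difference was 0.60 (95% interval 0.01 to 1.19, adjusted p = 0.204). With 1 library left out at a time it ran from 0.45 to 0.90 (adjusted p 0.0467 to 0.402) and passed only without early 5.

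Ly6c2 itself had the smallest difference of the classical members. Its level was 49.3, 73.9, 54.5, 131 and 118 CPM in early 1 to 5, and 164, 99.5, 88.5, 105 and 74.7 CPM in late 1 to 5. In untreated 1 to 5 it was 65.5, 64.4, 47.8, 140 and 52.4 CPM. Only late 1 was above every early ND mouse. The difference between late and early ND was 0.35 on the log2 scale (95% interval -0.28 to 0.97, adjusted p = 0.510), and that of Ly6c1, at 1.52 to 6.86 CPM in these 10 libraries, was -0.54 (adjusted p = 0.366).

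Among the nonclassical members, Cx3cr1 (ENSMUSG00000052336, chr9:119877749-119898945) encodes the receptor for fractalkine, the ligand on endothelium that keeps these cells in the circulation. Its level was 22.0, 18.9, 9.85, 25.6 and 31.0 CPM in early 1 to 5, and 21.9, 26.5, 21.7, 28.4 and 28.0 CPM in late 1 to 5. The untreated mice had 13.6 to 24.7 CPM, with a median of 17.3 and untreated 3 the highest. Late ND lay within the range of early ND, and 3 late ND mice were above every untreated mouse. The differences from early ND (0.28, 95% interval -0.22 to 0.79, adjusted p = 0.506) and from untreated (0.54, 95% interval 0.20 to 0.88, adjusted p = 0.0946) did not pass the threshold.

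Nr4a1 (ENSMUSG00000023034, chr15:101151980-101172681) encodes the transcription factor that nonclassical monocytes require, and it is also an immediate early gene of activated lymphocytes. It measured 15.9 to 43.2 CPM in early ND (median 27.9), 26.4 to 38.0 CPM in late ND (median 29.3) and 17.7 to 35.8 CPM in untreated mice (median 24.9). Every late ND value lay within the early ND range. Treml4 (ENSMUSG00000051682, chr17:48571323-48582388), a TREM-like receptor of nonclassical monocytes, measured 9.99 to 20.7, 12.1 to 21.0 and 9.25 to 19.3 CPM in the same order of groups. Their late ND to early ND differences were 0.15 (95% interval -0.31 to 0.60, adjusted p = 0.730) for Nr4a1 and 0.17 (95% interval -0.27 to 0.62, adjusted p = 0.663) for Treml4.

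Ace (ENSMUSG00000020681, chr11:105858469-105880790) encodes angiotensin-converting enzyme, a peptidase found on nonclassical monocytes and endothelium. Its level was 37.7, 24.7, 18.5, 65.7 and 65.9 CPM in early 1 to 5, and 42.3, 16.1, 23.1, 25.4 and 46.9 CPM in late 1 to 5. The untreated mice had 18.5, 28.5, 38.8, 48.2 and 17.4 CPM. The libraries early 4 and early 5 were the highest of all 15, and the groups overlapped. The late ND to early ND difference of -0.43 (95% interval -1.23 to 0.38, adjusted p = 0.535) was the most negative of the members. Since 17.0% of the exon bases of Ace also belong to Gm11651 on the opposite strand, and the strand setting of the counting is not given in the sources used here, reads of the pair may be mixed.

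Spn (ENSMUSG00000051457, chr7:126731404-126736995) encodes CD43, a sialoglycoprotein that is denser on nonclassical monocytes and is also carried by T cells and neutrophils. Its level was 89.7, 105, 69.0, 99.9 and 89.1 CPM in early 1 to 5, and 86.9, 64.6, 66.7, 86.0 and 89.8 CPM in late 1 to 5. Untreated 1 to 5 had 110, 96.3, 92.6, 82.6 and 74.2 CPM. The groups overlapped, with late 2 and late 3 below every mouse of both others. Spn varied least over the 15 libraries, with a highest to lowest ratio of 1.71, against 16.3 for Fn1. The late ND to early ND difference was -0.17 (95% interval -0.47 to 0.12, adjusted p = 0.482). When CPM were scaled by library totals alone, which moved the median of all genes to 0.86, the differences of Ace and Spn turned to 0.54 and 0.68, below that median.

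**Figure D2:**
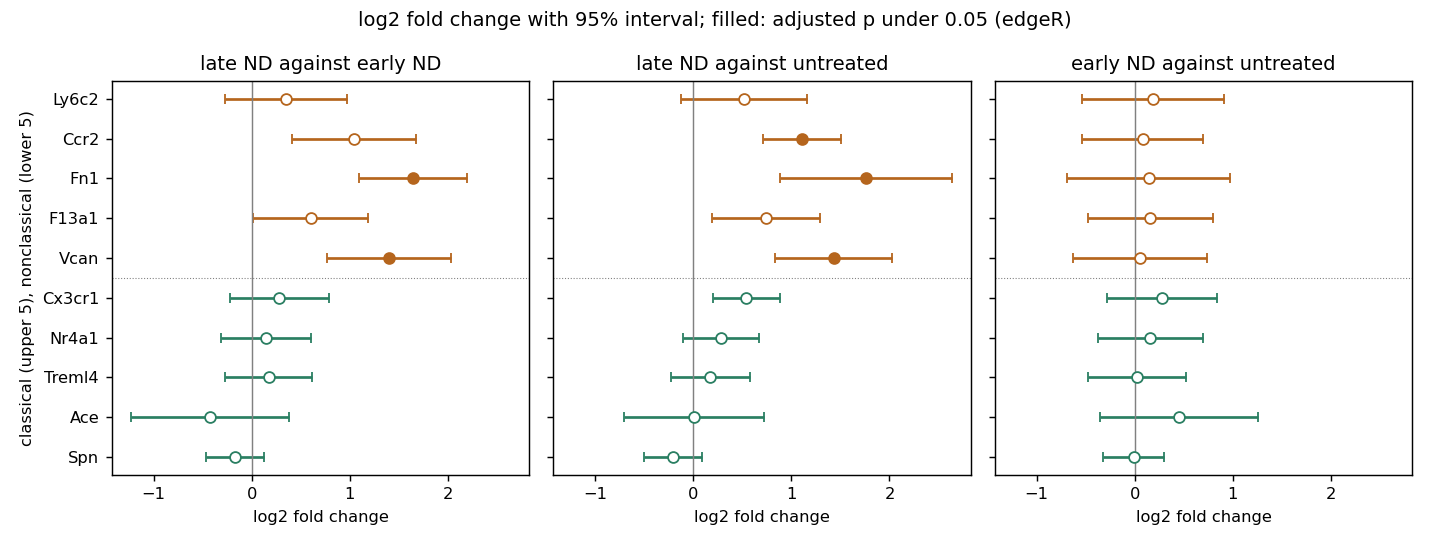
The log2 fold change of each member (horizontal axis) with its 95% interval is drawn for the 3 comparisons, with classical members in the upper rows and nonclassical members in the lower rows. Filled points passed the adjusted threshold in edgeR's quasi-likelihood test, and they are Fn1 and Vcan against early ND and Ccr2, Fn1 and Vcan against untreated.

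Against untreated blood, 3 classical members were higher in late ND, Ccr2, Fn1 and Vcan, and no nonclassical member passed. Of the 13547 genes tested, 0.989% were higher and 2.01% lower. At an unadjusted p under 0.05, 5 members were higher (the 4 classical ones other than Ly6c2, and Cx3cr1) and none lower, against 8.69% and 8.28% of all genes. The log2 differences were 1.11 for Ccr2 (SE 0.18, adjusted p = 0.0242), 1.76 for Fn1 (SE 0.40, adjusted p = 0.0403) and 1.43 for Vcan (SE 0.28, adjusted p = 0.0242). In each of these 3 genes all late ND mice were above all untreated mice, a separation that 2.5% of the genes tested showed in this direction and 2.98% in the other. F13a1 differed by 0.74 (adjusted p = 0.154) and Ly6c2 by 0.52 (adjusted p = 0.416). Of the nonclassical members, Nr4a1 differed by 0.28 (adjusted p = 0.473), Treml4 by 0.18 (adjusted p = 0.716), Ace by 0.01 (95% interval -0.70 to 0.72, adjusted p = 0.997) and Spn by -0.21 (adjusted p = 0.489). All 3 calls were lost on leaving out any one of untreated 3, late 1, late 2, late 4 and late 5. In those fits 0 of all genes tested were called in either direction, other than 1 higher without late 2. Without late 3 only Ccr2 of the members passed, where 9 of all genes were called higher and 0 lower. Fn1 was also lost without untreated 2 or untreated 4. Over the 10 fits without 1 library, the differences ran from 1.02 to 1.20 for Ccr2, 1.52 to 2.17 for Fn1 and 1.28 to 1.64 for Vcan, with adjusted p-values of up to 0.0712, 0.0919 and 0.0712. This comparison and the one with early ND use the same late ND mice and are not independent of each other.

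Early ND and untreated blood did not differ detectably in any member. The log2 differences ran from -0.01 for Spn to 0.45 for Ace, and the adjusted p-values from 0.940 to 0.997. At this spread the 95% intervals still held differences of up to 0.97 for Fn1 and 1.26 for Ace. Over all 12151 genes tested, 0% passed the adjusted threshold in edgeR's quasi-likelihood test or in DESeq2, and 256 (2.11%) were higher and 283 (2.33%) lower at an unadjusted p under 0.05, no member among them. No member separated the groups without overlap, as 0.346% of all genes did upward and 0.23% downward.

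Without the 3 libraries poor in 18S sequence, which leaves 3 late ND mice, the differences between late and early ND were as large or larger, at 1.83 for Fn1 and 1.67 for Vcan, but neither passed (adjusted p = 0.0509 for each), and 4 of all 13440 genes tested did. Against untreated mice, Ccr2 differed by 1.13 (adjusted p = 0.107), Fn1 by 1.81 (adjusted p = 0.140) and Vcan by 1.59 (adjusted p = 0.104), and no gene of 13051 passed in edgeR's test, while 956 were higher at an unadjusted p under 0.05. With the hemoglobin genes left out before scaling, the same members were called as with all genes, 2 against early ND and 3 against untreated.

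Within a group, single libraries were high or low in many members at a time. Of the early ND libraries, early 5 was highest in 8 of the 10 members, and early 3 lowest in 6. Early 3 was lowest in all 5 nonclassical members, whereas it was lowest in 1 classical member. In the untreated group, untreated 4 was highest in 6 members, and in the late ND group late 4 was highest in 5 and late 5 in 4.

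The balance between the kinds was described in each library by the classical members' average log2 CPM less the nonclassical members' average, a difference that TMM or any other scaling of a library scarcely changes. It was 2.10, 1.36, 0.73, 1.86 and 1.77 in untreated 1 to 5, 1.25, 1.32, 2.19, 1.15 and 1.79 in early 1 to 5, and 2.35 to 2.76 in late ND mice, with a median of 2.60. The lowest late ND mouse, late 3, lay above the highest mouse of both other groups, early 3, and the late ND mice were the closest to each other (SD 0.18, against 0.44 and 0.54). The classical mean log2 CPM was 1.03 higher in late ND than in early ND, and the nonclassical mean 0.01 higher.

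**Figure D3:**
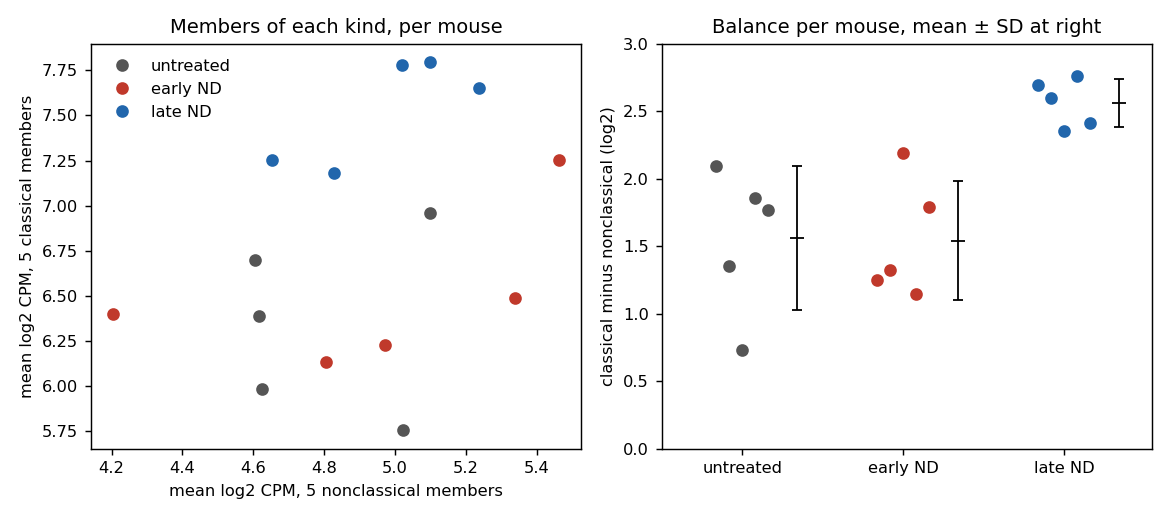
The left panel plots the mean log2 CPM of the 5 classical members (vertical axis) against that of the 5 nonclassical members (horizontal axis), 1 point per mouse, and the right panel their difference by group with mean ± SD. The late ND mice lie between 2.35 and 2.76, above the highest early ND mouse at 2.19 and the highest untreated mouse at 2.10.

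The mean balance was 1.56 ± 0.54 (SD, n = 5) in untreated, 1.54 ± 0.44 (SD, n = 5) in early ND and 2.56 ± 0.18 (SD, n = 5) in late ND mice. With each member left out in turn, the late ND to early ND difference of 1.02 ranged from 0.88 without Fn1 to 1.19 without Ly6c2. The groups stayed apart in each case other than without Spn, where late ND and early ND overlapped at a difference of 0.97. Without the libraries poor in 18S sequence the difference was 1.08, again with no overlap.

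Per kilobase of exon, the scale on which levels of different genes can be set side by side, F13a1, Ccr2 and Ly6c2 led in every group. In untreated mice they were at 31.0, 27.0 and 24.2 CPM per kb, and neighbors in that order, Spn at 19.5 included, were within each other's spread. A step followed to Treml4 at 7.54, and Ace, Fn1, Cx3cr1, Nr4a1 and Vcan closed the order, each within the spread of the next. In late ND, Ccr2 led at 58.2 CPM per kb, F13a1 followed at 51.9 and Ly6c2 at 34.8, and Spn at 16.8 came after a step beyond the spread. Fn1 came next at 12.8, and Nr4a1 was last at 2.83, below Vcan at 5.15 by more than the spread. With the length of the canonical transcript in place of all exon bases, Ly6c2 led in every group, at 127 CPM per kb in late ND, within the spread of F13a1 at 89.2. On that scale Nr4a1 in late ND stood at 12.1, above Vcan at 6.76, and Ace was last at 5.91. Fn1 at 24.1 came before Spn at 21.1, within the spread. The place of Nr4a1 therefore depends on the length used, 10903 exon bases or 2548 canonical bases.

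The classical members made up 68.7% ± 5.98 (SD, n = 5) of the summed CPM per kb of the 10 members in untreated, 69.1% ± 5.20 (SD, n = 5) in early ND and 80.4% ± 2.31 (SD, n = 5) in late ND mice. The late ND range, 77.7 to 82.3%, did not touch the others, whose highest values were 75.4 and 75.7%. On canonical transcript lengths, late ND mice at 81.9 to 87.3% overlapped with the highest untreated mouse at 82.9%.

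Some genes shared by both kinds of monocyte were also higher. Csf1r, the receptor for the survival factor CSF1, measured 70.6 to 120 CPM in early ND, 98.5 to 180 CPM in late ND and 74.0 to 101 CPM in untreated mice. The late ND values overlapped with those of both other groups, at late 2. Of 8 pan-monocyte genes, 1 was called higher against early ND, Csf1r (log2 fold change 0.75, adjusted p = 0.0425), where 2.5% of all genes were called higher, 6 were higher at an unadjusted p under 0.05 (all genes: 14.4%), and the median of the list was 0.68. The ends of the list were Adgre1 (0.92, adjusted p = 0.0518) and Clec4a3 (0.77, adjusted p = 0.160), and Ms4a6c (0.42) and Ctss (0.43), which encodes cathepsin S. Against untreated blood 5 of the 8 were higher, Adgre1, Clec4a1, Clec4a3, Csf1r and Mpeg1, at 0.73 to 0.89, against 0.989% of all genes, and the median of the 8 was 0.77.

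Set against Csf1r in the same library, the members differed. The log2 ratio of Fn1 to Csf1r was -1.01 to -0.07 in early ND and 0.22 to 0.92 in late ND, with no overlap, although untreated 1 reached 0.47. The ratio of Vcan to Csf1r averaged -1.48 in early ND and -0.77 in late ND, with late 3 below early 5, and that of Ccr2 averaged 1.07 and 1.47 with overlap. The ratio of Spn to Csf1r averaged 0.08 in early ND and -0.84 in late ND, where every mouse was below every early ND and untreated mouse. For Ly6c2, F13a1, Cx3cr1, Nr4a1, Treml4 and Ace the ratios overlapped between late and early ND. Their averages were lower in late ND, by -0.35 and -0.09 for the classical members Ly6c2 and F13a1. For Cx3cr1, Nr4a1, Treml4 and Ace the differences were -0.40, -0.56, -0.57 and -1.12, against -0.93 for Spn.

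**Figure D4:**
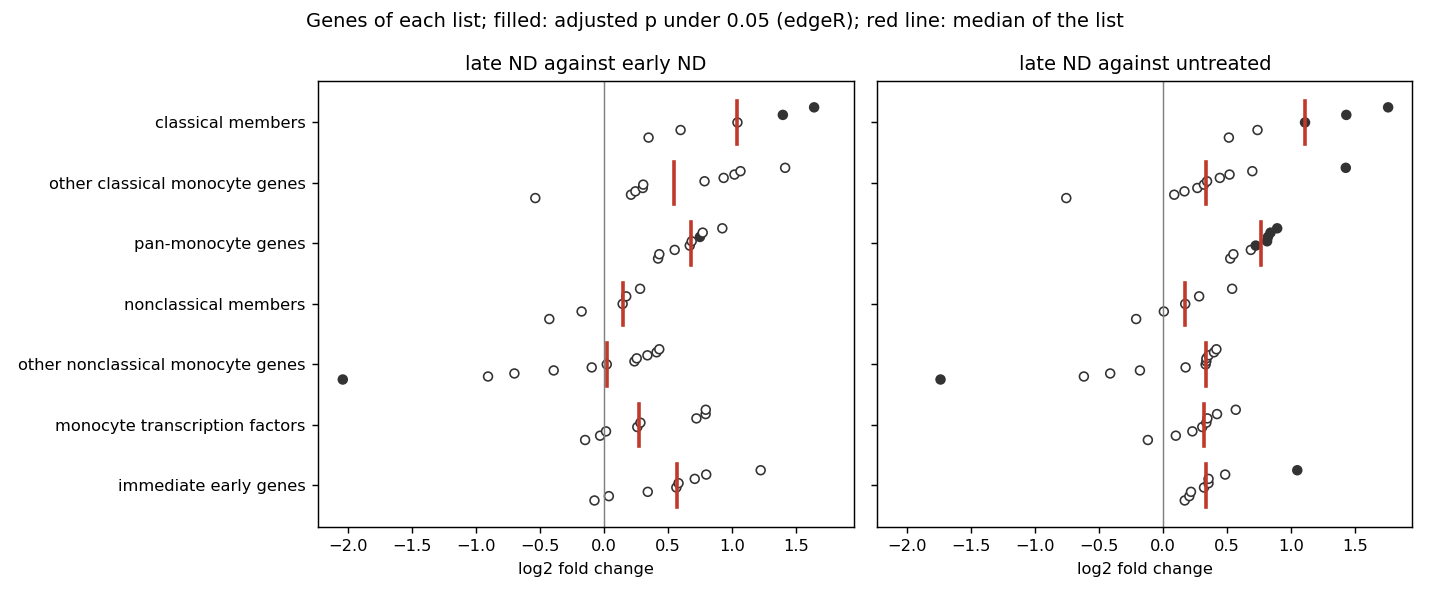
Points are the log2 fold changes (horizontal axis) of single genes in each list of monocyte genes (rows), against early ND on the left and against untreated on the right, with the median of the list as a red line. Filled points passed the adjusted threshold, and the classical members and pan-monocyte genes hold most of those to the right of 0.

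Other genes used to mark classical monocytes gave fewer calls. Of 10, none was called against early ND by edgeR's quasi-likelihood test, 5 were higher at an unadjusted p under 0.05 (all genes tested: 14.4%), and the median was 0.55. The genes at the upper end were Cd14, the lipopolysaccharide co-receptor (1.42, adjusted p = 0.0703), and Ccr1, a chemokine receptor also found on neutrophils (1.07, adjusted p = 0.0664), and at the lower end Ly6c1 (-0.54) and Plac8 (0.21). Against untreated, late ND differed by 0.32 in Cd14 (adjusted p = 0.720) and 0.35 in Ccr1 (adjusted p = 0.557). Early ND against untreated gave -1.08 for Cd14 and -0.71 for Ccr1 (adjusted p = 0.938 for each). Against untreated blood 1 of 10 was higher (all genes: 0.989%), Chil3, which encodes a secreted chitinase-like protein of monocytes and neutrophils. At an unadjusted p under 0.05, 3 of the 10 were higher and 1 lower (all genes: 8.69% and 8.28%). Chil3 measured 154 to 567 CPM in untreated and 772 to 1028 CPM in late ND mice (log2 fold change 1.43, adjusted p = 0.0261). These ranges did not overlap, as in 2.5% of all genes. The median over the 10 was 0.33.

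Of 11 other nonclassical genes, 1 was called lower in late ND and none higher, with a median of 0.02 against early ND and 0.33 against untreated. Over all genes, 2.48% were called lower against early ND and 2.01% against untreated. Against early ND, 2 of the 11 were higher and 3 lower at an unadjusted p under 0.05 (all genes: 14.4% and 9.33%). Against untreated, 1 was higher and 2 lower (8.69% and 8.28%). The gene called was Cd36, a scavenger receptor also carried by platelets and red cell precursors. Its level was 22.4, 27.5, 46.8, 75.4 and 83.2 CPM in early 1 to 5, and 14.6, 8.34, 11.9, 12.7 and 13.2 CPM in late 1 to 5. Untreated 1 to 5 had 57.1, 18.2, 59.8, 39.2 and 31.8 CPM. All late ND mice lay below all others, as in 2.93% of all genes against early ND and 2.98% against untreated. Cd36 was lower by 2.04 on the log2 scale against early ND (adjusted p = 0.0126) and by 1.74 against untreated (adjusted p = 0.0242). The ends of the list against early ND were otherwise Cd300e (-0.90, adjusted p = 0.173), Fcgr4 (0.43, adjusted p = 0.433) and Itgal (0.41, adjusted p = 0.144).

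Of 10 transcription factors of monocytes, 8 were tested and none was called in any comparison by edgeR's quasi-likelihood test, with 4 of the 8 higher against early ND at an unadjusted p under 0.05 (all genes: 14.4%). Cebpb (0.80, adjusted p = 0.134) and Spi1, which encodes PU.1 (0.79, adjusted p = 0.0780), stood at the upper end, and Irf8 (-0.15) and Gfi1 (-0.03) at the lower end. Of 6 ligands that act on monocytes, only Csf1 passed the filter on low counts (0.12 against early ND, adjusted p = 0.772). The ligands of the 2 receptors among the members, Ccl2, Ccl7 and Ccl12 for CCR2 and Cx3cl1 for CX3CR1, were under 1 CPM in every library. The 8 immediate early genes, the class Nr4a1 belongs to, held no call against early ND, and their median was 0.57. At an unadjusted p under 0.05, 4 of the 8 were higher and none lower (all genes: 14.4% and 9.33%). Fos at 1.22 (adjusted p = 0.122) and Junb at 0.80 (adjusted p = 0.102) were highest, and Fosb at -0.07 and Egr1 at 0.04 lowest. In late ND against untreated blood, Atf3 alone of them was called higher (1.05, adjusted p = 0.0271), where 0.989% of all genes were called higher. In early ND against untreated, 7 were tested and none was called, with a median of -0.34. There 3 were lower and 1 higher at an unadjusted p under 0.05 (all genes: 2.33% and 2.11%).

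Among the markers of other blood cells, the neutrophil genes had a median log2 fold change against early ND close to that of the classical members, and no tested platelet, T cell, NK cell or B cell gene had a log2 fold change above 0 (medians -0.44, -0.26, -0.25 and -0.33). The summed level of 12 neutrophil genes was 2585 to 8085 CPM in early ND, 6155 to 16509 CPM in late ND and 4757 to 12600 CPM in untreated mice. Their median log2 fold change was 1.09 against early ND, with 2 of 12, Cd177 and Mmp8, called higher (all genes: 2.5%) and 9 of 12 higher at an unadjusted p under 0.05 (14.4%). In late ND against untreated blood the median was 0.32. None of the 12 passed in edgeR's quasi-likelihood test, nor was any at an unadjusted p under 0.05. In early ND against untreated blood, the log2 fold changes of the 12 neutrophil genes ran from -1.21 to -0.33. None was called, and 6 were lower at an unadjusted p under 0.05 (all genes: 2.33%). The classical members did not share this lower level in early ND, at 0.05 to 0.19 in that comparison. The erythroid list summed to 6799 to 31742 CPM in early ND, at most 4863 CPM in late ND and 6656 to 36373 CPM in untreated mice. Alas2, Epb42 and Slc4a1 were called lower against early ND (all genes: 2.48%), and with Tfrc against untreated (2.01%). The platelet genes, of which Gp1bb was listed at 0 in every library, summed to 2161 to 4044 CPM in early ND and 1666 to 2521 CPM in late ND. None of the 7 platelet genes tested was called in edgeR's quasi-likelihood test. At an unadjusted p under 0.05, 1 of the 7 was lower against early ND (all genes: 9.33%) and 2 against untreated (8.28%). The T cell list summed to 191 to 361 CPM in early ND, 211 to 269 CPM in late ND and 272 to 413 CPM in untreated mice. Cd3g was called lower in late ND than in untreated blood, as 2.01% of all genes were. At an unadjusted p under 0.05, 7 of the 8 T cell genes were lower in that comparison (all genes: 8.28%). Their median there was -0.45, and the summed late ND and untreated ranges did not overlap. Against early ND none of the 8 was at that level. The ranges of the NK cell, B cell, eosinophil and basophil, and skin lists overlapped between late ND and both other groups.

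The dendritic cell genes, of a lineage close to monocytes, summed to 11.2 to 25.1 CPM in early ND, 23.6 to 30.9 CPM in late ND and 11.9 to 18.7 CPM in untreated mice. Flt3 (0.94, adjusted p = 0.0413) and Cd209a (1.22, adjusted p = 0.0267) were called higher against early ND, as 2.5% of all genes were. Of the 5 tested, 3 were above 0 and the median was 0.66, while Xcr1 (-0.67, adjusted p = 0.232) and Clec9a (-0.04, adjusted p = 0.939), genes of cross-presenting dendritic cells, were below 0. Tissue macrophage genes summed to 3.27 to 16.4 CPM in early ND and 3.69 to 15.9 CPM in late ND, and genes of fibroblasts, which also make fibronectin and versican, to 9.94 to 46.5 CPM in early ND and 3.53 to 18.5 CPM in late ND. Genes of endothelium, which also carries Ace, summed to 4.69 to 7.12 and 2.65 to 4.74 CPM. The share of neutrophils, red cell precursors and dendritic cells in the differences of the members was not tested.

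The genes whose profile over the 15 libraries was most like the mean of the classical members were Lrp1, Ifi30, Ms4a4a, Grn and Plod3, among 7280 other genes with at least 10 CPM on average. Profiles were log2 CPM set to a mean of 0 and an SD of 1, and likeness was the root mean square difference, from 0.29 for Lrp1 to 0.33 for Plod3. Grn encodes progranulin and Ifi30 a thiol reductase of lysosomes. Lrp1, which encodes a large endocytic receptor, averaged 53.3 CPM in untreated, 62.3 CPM in early ND and 159 CPM in late ND mice. Vcan (0.27) and F13a1 (0.36) were nearest to the mean of their own kind and Ly6c2 (0.70) farthest.

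For the nonclassical members the nearest genes were Adgre4, Hfe, Grk3, Cyria and Kxd1, at 0.50 to 0.59. Of these Adgre4, an adhesion receptor of the EGF-TM7 family, also stands on the list of other nonclassical genes. Ace (0.51) was nearest and Spn (1.03) farthest from the mean of its kind. The classical members Ly6c2 (0.92) and Ccr2 (0.98) lay nearer to the nonclassical mean than Spn did. These distances describe 15 libraries that share depth and group differences, and they carry no test.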

How the data were processed

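Whole blood RNA of 15 mice was measured, and groups were taken from the sample labels (5 untreated, 5 early ND, 5 late ND). The authors deposited raw counts of read pairs per gene, made per the labels with STAR 2.7.9 on the GRCm39 genome, SAMtools 1.7 and HTSeq 0.13.5, and the annotation release and strand setting are not given in the sources used here. Rows that name no gene held 75.6 to 88.1% of the sum over all rows and were left out. Of 55416 gene IDs, 54749 matched the GENCODE annotation of GRCm39, which gave symbols, positions and sequences.

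Each pair of groups was fitted on its own in R 4.3.3 with edgeR 4.0.16 (filterByExpr, TMM, quasi-likelihood test, Benjamini-Hochberg adjustment over all genes tested, threshold 0.05), and intervals are 95%. Gene counts per library ran from 5527108 to 13924361. In late ND against early ND, simulated counts of 13019 genes returned 187 of 200 genes changed by 2 on the log2 scale, with 3 false calls. The largest difference of a member in that comparison was 1.64, for Fn1. Recovery of differences smaller than 2 was not simulated. Alternatives were DESeq2 1.42.0, other scalings, no filter, 1 fit over all libraries, a replicate block and libraries left out.

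The members and gene lists were chosen with earlier results of these data known. Named were all members, Ly6c1, every gene of the monocyte lists that passed in a comparison, the 2 highest and 2 lowest of each list in late against early ND, and the 5 genes nearest in profile to each kind. Summed levels and those called in lists of other cell types were read out too. Lengths of the canonical transcript, ratios to Csf1r and the balance without libraries poor in 18S sequence were added after seeing the data. Some list genes are not reported here.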

Additional observations from a re-analysis of the deposited data

Results flagged for a closer look

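One value stood apart from the rest of its group. Ly6c2 measured 139.8 CPM in untreated 4, while the other untreated libraries lay between 47.8 and 65.5 CPM, a gap above the 95% critical value of Dixon's test for 5 samples. Of 33 sets of 5 libraries examined in this way it was the only one, and chance gives about 1 in 20. Untreated 4 was also the highest untreated library in 6 of the 10 members.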

How the results depend on the processing

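The number of members called higher in late ND against early ND, 2 in the reported fit, was 9 with library totals, where the median of all genes rose to 0.86, and 0 without the libraries poor in 18S sequence. It was 1 to 4 with each library left out, namely 4 without early 5 and 1, Fn1, without early 4, late 1, late 4 or late 5. Fn1 passed with every single library left out (adjusted p 0.00849 to 0.0391), Vcan ranged from 0.0172 to 0.0720 and Ccr2 from 0.0191 to 0.144. Against untreated the number, 3, was 9 with library totals (median of all genes 0.91), 0 without the libraries poor in 18S sequence and 0 to 3 with each library left out: 0 without untreated 3, late 1, late 2, late 4 or late 5, and 1, Ccr2, without late 3. Of all genes tested against untreated, 0 were called in either direction without untreated 3, late 1, late 4 or late 5. Without late 2 it was 1, and without late 3 it was 9, all higher. The cause was not tested. The numbers of genes called among all genes in late ND against early ND were 769 higher and 670 lower with DESeq2, 201 and 338 with relative log expression factors, 8923 and 137 with library totals, and 886 and 396 with no filter, in place of 333 and 330. In late ND against untreated they were 272 and 538, 108 and 284, 7484 and 90, and 170 and 292, in place of 134 and 272.

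The labels do not say that replicate numbers mark shared animals or batches, and same-numbered libraries did not all correlate over 0.1, so the numbers were not treated as pairs. The mean correlations were -0.01 against early ND, 0.24 for late ND against untreated and -0.10 for early ND against untreated. In late ND against untreated, the correlations were 0.14, 0.26, 0.03, 0.20 and 0.58, and for the numbers 2, 4 and 5 the same number was the best match, a hint from the data and not the design. With the replicate number as a block, 3 members were called against early ND and 4 against untreated, Ccr2 being added (adjusted p = 0.0427) in the first and F13a1 (adjusted p = 0.0130) in the second.

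Directions that turned belonged to differences that had not passed. In late ND against early ND these were Ace at 0.54 and Spn at 0.68 with library totals, and Nr4a1, at -0.0088 to 0.36 with each library left out. Against untreated they were Ace at -0.0021 with relative log expression factors, -0.047 under the block and -0.22 to 0.25 with libraries left out, and Spn at 0.72 with library totals. In early ND against untreated, Ccr2 was -0.017 under the block, Spn 0.042 with library totals, and without the libraries poor in 18S sequence Fn1 was -0.015, Vcan -0.066, Treml4 -0.028 and Spn 0.012. With each library left out, that comparison ranged from -0.0068 to 0.56 for Ly6c2, -0.29 to 0.21 for Ccr2, -0.090 to 0.55 for Fn1, -0.13 to 0.33 for F13a1, -0.21 to 0.25 for Vcan, -0.043 to 0.32 for Nr4a1, -0.11 to 0.15 for Treml4 and -0.079 to 0.069 for Spn. The classical share was 74.9, 74.8 and 86.1% in untreated, early ND and late ND with no gene length, and 76.4, 77.4 and 84.8% on canonical lengths. The balance between late ND and untreated was 0.81 without Fn1. Of 80 values per comparison under settings other than leaving out each library in turn, 66, 67 and 74 kept their direction and side of the threshold. In early ND against untreated, the setting without the libraries poor in 18S sequence is the same fit as that without untreated 2.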
